A study of Rattus norvegicus with 77 samples.

Results

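The MHC class II genes of the rat are described here: 8 genes, Cd74, RT1-Da, RT1-Ba, RT1-Bb, RT1-Db1, RT1-DMa, RT1-DMb and Ciita, in sperm RNA. They were taken by name from the platform annotation, where a probe set (the probes of 1 transcript) counted if it carried the gene as its single symbol, and each gene had exactly 1 such probe set among the 29214 on the array. The samples were sperm from the cauda epididymides of adult male Fischer 344 rats, 1 Affymetrix whole-transcript array per rat. HD (2,5-hexanedione, a toxicant that cross-links tubulin in Sertoli cells) was given at 0.33% in drinking water for 3 months to the HD group (n = 19), while the water group (n = 20) drank water only. The HD-recovery (n = 20) and water-recovery (n = 18) groups had the same 3 months and were then kept for a further 3 months without HD, so they were older by that time when killed. All pellets had been through a buffer meant to lyse somatic cells. The study reports that no somatic cells were seen by microscopy and that ribosomal RNA peaks were absent on gels. Each array reads the RNA of everything left in the pellet, sperm or not.

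MHC class II molecules show peptides to helper T cells. Each is a pair of an alpha and a beta chain, held in the endoplasmic reticulum and on the way to the endosome by the invariant chain, which Cd74 encodes. In the endosome the invariant chain is cut away by cathepsins, and the DM protein, itself an alpha and beta pair, helps exchange its last fragment for a peptide. The set is made mainly by dendritic cells, B cells and macrophages, including those of the epididymis, and its transcription is switched on by the coactivator Ciita, which joins the factors RFX, CREB and NF-Y on short promoter elements called the X and Y boxes. In the rat the class II region is named RT1: RT1-Da and RT1-Db1 encode the D chains, RT1-Ba and RT1-Bb the B chains, and RT1-DMa and RT1-DMb the DM chains.

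By RefSeq's annotation of the GRCr8 build, the 6 RT1 genes lie within 197 kb of chromosome 20 (chr20:4515393-4712335). Cd74 lies at chr18:56527071-56536406 and Ciita at chr10:5646854-5694393. These are positions of the genes, not of the probes.

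The promoters are shown as a description of the genes, and any link between their letters and the values on the arrays was not tested. RefSeq promoters of 300 bases, from 250 before to 50 after the start, were in the table used for 6 of the 8 genes. RT1-DMb and Ciita were not matched. The letters ACNGATG stood for the X box and ATTGG for the Y box, searched on both strands. They were chosen after these promoters had been seen, and the patterns share no letters where they are set apart by 10 to 35 bases. The following stretches run 5′ to 3′ on the strand of the gene, from 50 bases before the Y letters to 10 after, with matches in capitals.
Cd74: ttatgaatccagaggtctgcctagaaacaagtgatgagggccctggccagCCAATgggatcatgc
RT1-Da: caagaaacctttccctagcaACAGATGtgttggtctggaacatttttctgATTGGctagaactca
RT1-Db1: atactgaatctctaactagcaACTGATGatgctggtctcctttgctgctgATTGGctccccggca
RT1-Ba: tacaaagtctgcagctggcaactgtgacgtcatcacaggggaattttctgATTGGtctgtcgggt
RT1-Bb: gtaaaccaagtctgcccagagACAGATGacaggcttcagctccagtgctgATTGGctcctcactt
RT1-DMa: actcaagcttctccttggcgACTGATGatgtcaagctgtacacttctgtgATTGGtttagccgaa
The capitals mark the X letters, where found, and the Y letters; in Cd74 the Y letters are on the opposite strand and so read CCAAT. In GRCr8 the stretches lie at chr18:56526967-56527031 (plus strand) for Cd74, chr20:4515316-4515380 (plus) for RT1-Da, chr20:4560228-4560292 (minus) for RT1-Db1, chr20:4576964-4577028 (plus) for RT1-Ba, chr20:4604165-4604229 (minus) for RT1-Bb and chr20:4712385-4712449 (minus) for RT1-DMa. RT1-Da and RT1-DMa held the X letters 23 bases before the Y letters, and RT1-Db1 and RT1-Bb 22 bases before. The X letters followed on the same strand by the Y letters at that range of spacing were in 4 of the 6 promoters and in 0.206% of all 33469 promoters of the table. The X letters alone were in 4 of the 6 and 10.2% of all, and the Y letters alone in 6 of the 6 and 37.5% of all. RT1-Ba and Cd74 did not hold the X letters in this window. A match is a description of letters and not evidence of binding, and the lack of a match does not show that an X box is missing. Because the letters were chosen after these promoters had been seen, the shares are no test of enrichment.

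Values are log2 intensities, and 77 arrays were used. Array medians lay between 6.51 and 6.78. Arrays of 1 group differed widely, with 41.9% of the variance around the group means on 1 component. By a rule on their correlation with their own group, 10 arrays stood apart: water replicate 20, HD replicates 3, 4, 5 and 14, water-recovery replicates 12 and 15, and HD-recovery replicates 2, 9 and 16. They were kept, and results are also given without them. The array gives no call of presence, so a level cannot be read as detected or not, and levels of different genes are not set against each other. In RNA from a whole pellet, fewer cells of a type and less RNA per cell cannot be told apart.

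None of the 8 class II genes was altered in arrays labelled HD compared with arrays labelled water at q under 0.05 by limma, against 0.472% of all probe sets. At an unadjusted p under 0.05, 7 of the 8 had a lower mean in arrays labelled HD and none a higher one, against 4.91% of all probe sets that were lower at that p. The median log2 difference, HD minus water, was -0.35 over the 8 genes and 0.01 over all probe sets. The direction by label is opposite to the one the study gives for nearly all of the transcripts it lists that could be matched by name. Whether the labels of the arrays or the published signs are turned could not be settled here, and if the labels are, every HD minus water value changes sign, so the groups are named as labelled throughout. By size, Cd74 and 3 of the chain genes had differences from -0.71 to -0.48, the other 3 RT1 genes from -0.21 to -0.11, and Ciita 0.00. These differences were not tested against each other.

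Cd74, the invariant chain, had the lowest, median and highest log2 values of 9.20, 11.09 and 11.61 in arrays labelled water. In arrays labelled HD the values were 9.45, 10.18 and 11.54. The groups overlapped throughout, and 16 of the 19 HD arrays were under the median of the water arrays and 15 under the lower quartile of the water arrays, while water replicate 12 lay below every HD array. The means were 10.93 ± 0.61 (SD, n = 20) and 10.22 ± 0.61 (SD, n = 19), a log2 difference of -0.71 (SE 0.19, 95% CI -1.09 to -0.33), or 1.64-fold lower, with p = 0.00046 and q = 0.069 from limma. Cd74 was 197th of the 29214 probe sets when these were ordered by p.

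RT1-Da, the alpha chain of the D molecule, ran from 6.42 over a median of 7.35 to 7.99 in water arrays and from 6.12 over 6.70 to 7.71 in HD arrays. Of the 19 HD arrays, 18 were below the water median and 5 below the lowest water array, and none lay above the highest. Its log2 difference was -0.51 (SE 0.13, 95% CI -0.78 to -0.24), or 1.42-fold lower (q = 0.070 from limma).

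RT1-Ba, the alpha chain of the B molecule, ran from 6.21 over 7.57 to 7.96 in water arrays and from 5.95 over 6.96 to 7.93 in HD arrays. Here 17 HD arrays were below the water median and 2 below all water arrays. The log2 difference was -0.54 (SE 0.15, 95% CI -0.84 to -0.23, q = 0.10 from limma). RT1-Bb, its beta chain partner, ran from 7.58 over 8.37 to 8.90 in water arrays and from 6.99 over 7.84 to 8.75 in HD arrays. For this gene 16 HD arrays were below the water median and 4 below all water arrays, and the log2 difference was -0.48 (SE 0.13, 95% CI -0.75 to -0.21, q = 0.086 from limma).

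The beta chain of the D molecule and both DM chains varied over a narrower range and differed less. RT1-Db1 had water values from 6.32 over 6.72 to 7.07 and HD values from 6.16 over 6.55 to 6.89. Of the HD arrays 17 were below the water median, and the log2 difference was -0.18 (SE 0.06, q = 0.20 from limma). RT1-Db2, a related D beta chain gene beside it, had no probe set of its own among those used, and whether its RNA adds to the RT1-Db1 value was not tested. RT1-DMa ran from 8.86 over 9.27 to 9.63 in water and from 8.71 over 8.99 to 9.56 in HD arrays. For it 15 HD arrays were below the water median and 5 below all water arrays, with a log2 difference of -0.21 (SE 0.06, q = 0.14 from limma). RT1-DMb, the other DM chain, had medians of 7.23 and 7.12 in water and HD arrays and a log2 difference of -0.11 (SE 0.05, 95% CI -0.21 to -0.01, q = 0.52 from limma).

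Ciita, the coactivator of the class II promoters, gave no such difference. Its values ran from 6.38 over 6.61 to 6.90 in water arrays and from 5.85 over 6.67 to 6.92 in HD arrays. The low end of the HD group was a single array, replicate 5, one of those that stood apart. The log2 difference was 0.00 (SE 0.06, 95% CI -0.12 to 0.13, q = 0.99 from limma), and Ciita was 28418th of the probe sets by p. This interval leaves out the log2 differences of Cd74, RT1-Da, RT1-Ba, RT1-Bb, RT1-Db1 and RT1-DMa, and takes in the log2 difference of RT1-DMb (-0.11). That is no test between genes, as the errors of the other genes are left aside. The 95% CIs of RT1-Db1 (-0.30 to -0.06) and RT1-DMa (-0.34 to -0.08) overlap that of Ciita.

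**Figure D1:**
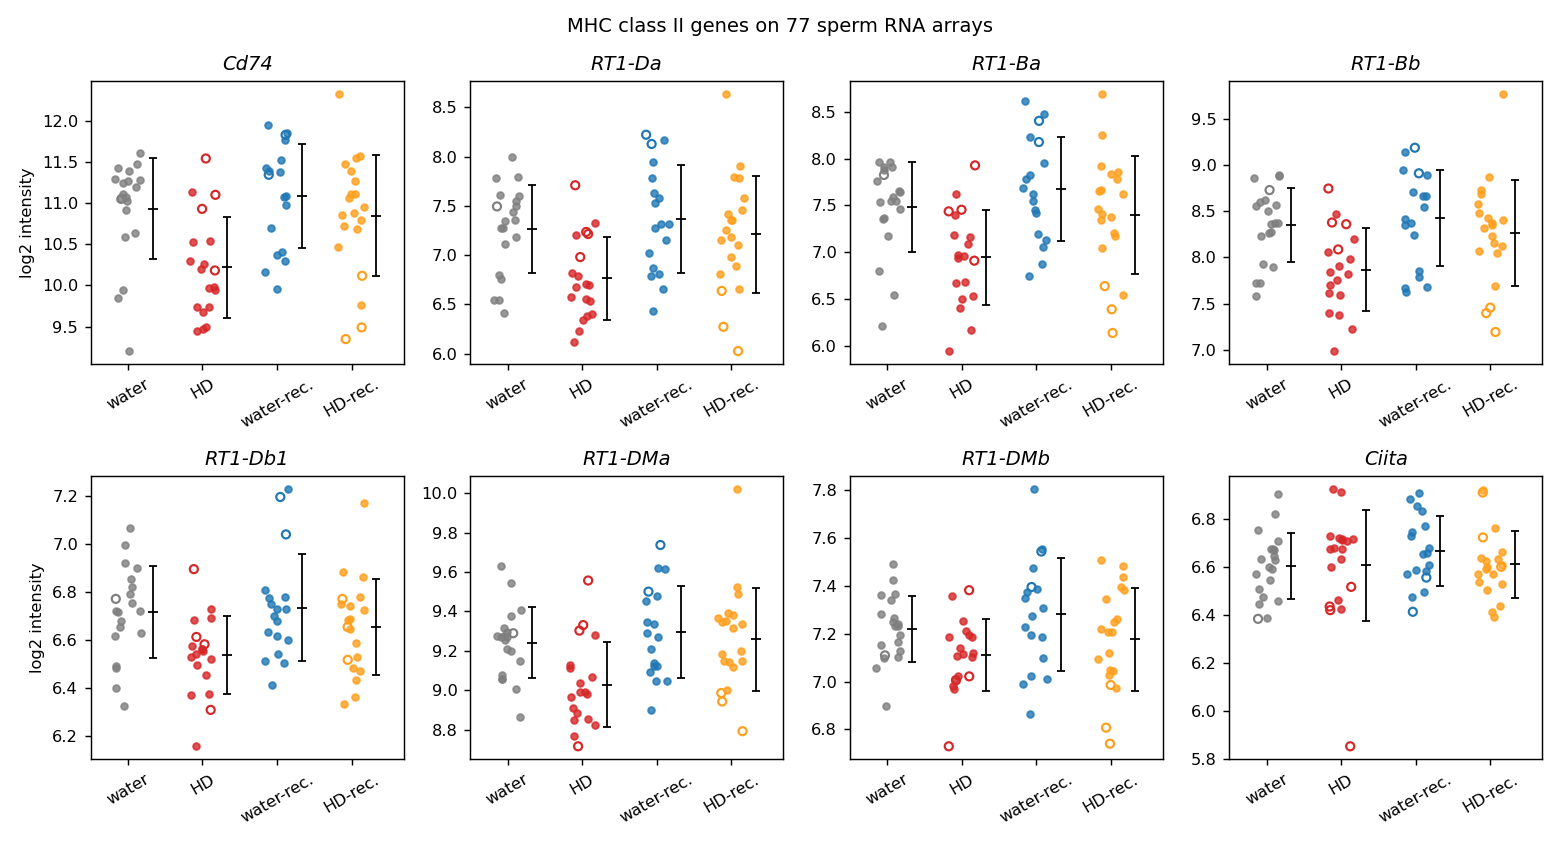
Log2 intensity of the 8 MHC class II genes on each of the 77 arrays, with 1 point per array, open points for the 10 arrays that stood apart, and black bars for the mean ± SD of each group. In Cd74 the HD arrays centre on 10.22 and the water arrays on 10.93, while the Ciita means are level at 6.61 and 6.60.

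Several of the arrays that stood apart were at an end of their group. HD replicate 14 had the highest value of the HD group for 7 of the 8 genes, all but Ciita. HD-recovery replicates 2, 9 and 16 held the lowest value of their group for 6 of the 8 genes between them. Leaving out the HD and water arrays that stood apart took Cd74 to -0.90 (SE 0.18, q = 0.00096 from limma) and RT1-Da to -0.63 (q = 0.0011), and 6 of the 8 genes, all but RT1-DMb and Ciita, passed. In that fit 8818 of the 29214 probe sets passed as well, so the 6 are read against a large share of the array. Ciita had 0.07 there (q = 0.11).

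After recovery none of the 8 genes differed between arrays labelled HD-recovery and water-recovery by limma, as did none (0%) of all probe sets, and the q-values were all 1.0. None of the 8 passed an unadjusted p under 0.05, a level at which 1.65% of all probe sets were lower. All 8 differences were negative, between -0.04 and -0.28, with a median of -0.13 against -0.01 over all probe sets.

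Cd74 ran from 9.96 over a median of 11.22 to 11.95 in water-recovery arrays and from 9.35 over 10.91 to 12.33 in HD-recovery arrays. The groups overlapped, with 14 of the 20 HD-recovery arrays below the water-recovery median, 3 below the lowest and 1 above the highest water-recovery array. Its log2 difference was -0.24 (SE 0.21, 95% CI -0.66 to 0.19, p = 0.27 from limma). The single array at the top, HD-recovery replicate 19, had the highest value of its group for 6 of the 8 genes, and it was not among the arrays that stood apart.

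RT1-Ba had the largest difference of the 8 after recovery, -0.28 (SE 0.18, 95% CI -0.65 to 0.09), and its medians were 7.65 in water-recovery and 7.44 in HD-recovery arrays. RT1-Da had -0.16 (95% CI -0.51 to 0.20) and RT1-Bb -0.16 (95% CI -0.50 to 0.18). The intervals of these chain genes take in both 0 and part of the range measured at 3 months. RT1-DMb had -0.10, RT1-Db1 -0.08, Ciita -0.06 and RT1-DMa -0.04. Without the arrays that stood apart, Cd74 had 0.04, RT1-Da 0.10 and RT1-Bb 0.08, so the sign of these differences depended on those arrays. In that fit none of the 8 genes passed by q in limma, while 3834 of the 29214 probe sets did. At an unadjusted p under 0.05, 1 of the 8 was lower and none higher. The median over the 8 genes was then 0.01.

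The change from exposure to recovery was tested directly. The effect of exposure minus the effect after recovery was -0.48 for Cd74 (SE 0.29, 95% CI -1.05 to 0.10, p = 0.10) and -0.35 for RT1-Da (SE 0.23, p = 0.12), and none of the 8 genes passed in limma, either by q (0% of all probe sets passed) or at an unadjusted p under 0.05. A difference between the effect at the end of exposure and that at the end of recovery was thus not shown with all arrays. With those arrays left out this contrast was -0.94 for Cd74 (q = 0.0030 from limma). In that fit 7 of the 8 genes passed, 6 of them negative and Ciita positive, beside 16591 of the 29214 probe sets. At an unadjusted p under 0.05, 5 of the 8 were negative and 1 positive, so q was the looser mark there.

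Arrays labelled HD-recovery were also set against arrays labelled HD, which share their arrays with the comparisons above and differ from each other in age too. None of the 8 genes passed, against 0.154% of all probe sets. At an unadjusted p under 0.05, 5 of the 8 were higher in HD-recovery arrays and none lower, against 4.28% of all probe sets that were higher. They were Cd74 at 0.63 (SE 0.20, q = 0.18 from limma), RT1-Ba at 0.46 (SE 0.17), RT1-Da at 0.45 (SE 0.16), RT1-Bb at 0.40 (SE 0.15) and RT1-DMa at 0.23 (SE 0.07, q = 0.16). RT1-Db1 had 0.12, RT1-DMb 0.07 and Ciita 0.01. Between the control groups, water-recovery minus water, none of the 8 passed and neither did any probe set (0%), and none of the 8 passed an unadjusted p under 0.05. All 8 of those differences were positive, from 0.02 for RT1-Db1 to 0.20 for RT1-Ba (SE 0.17).

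The order of the group medians was the same for Cd74, RT1-Ba, RT1-Bb, RT1-DMa and RT1-DMb: water-recovery highest, then water, then HD-recovery, then HD. For RT1-Da the water median (7.35) was slightly above the water-recovery median (7.32), and HD-recovery followed at 7.22. The water median of RT1-Db1 (6.72) was also slightly above that of water-recovery (6.71). For Ciita the HD median (6.67) was the highest. Water-recovery and water arrays did not differ beyond their spread, and water and HD-recovery arrays were not tested against each other. The step from HD-recovery down to HD reached an unadjusted p under 0.05 in limma for Cd74, RT1-Da, RT1-Ba, RT1-Bb and RT1-DMa only.

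**Figure D2:**
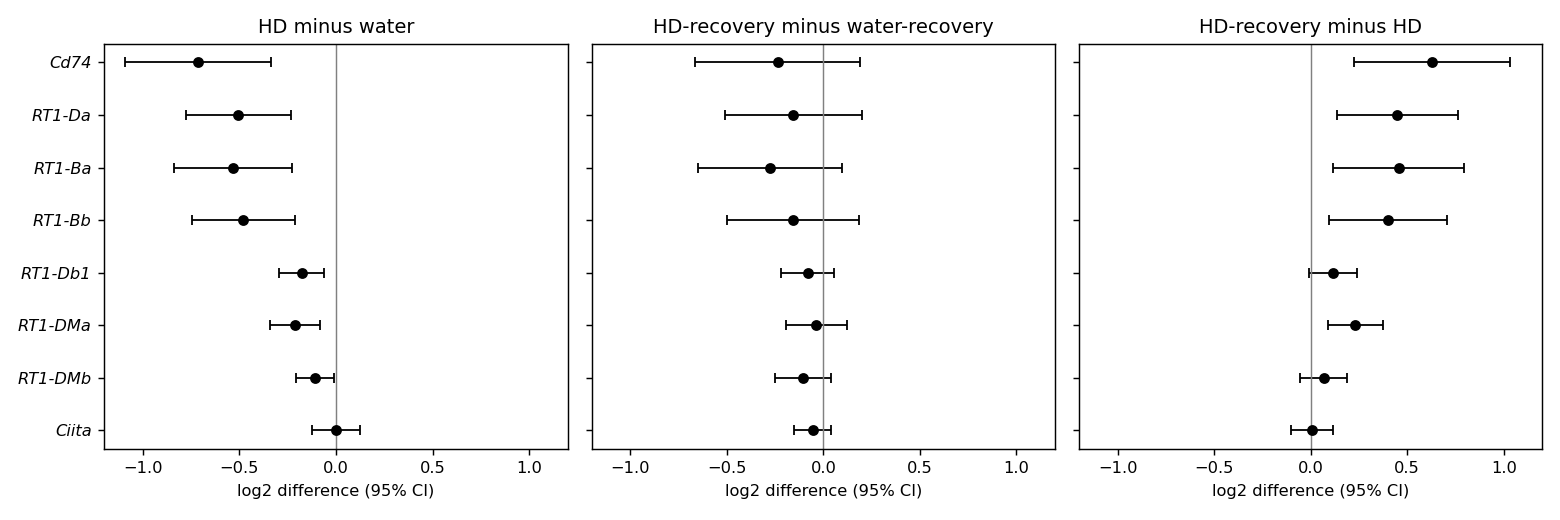
Log2 differences of the 8 genes with 95% confidence intervals from limma, for HD minus water, HD-recovery minus water-recovery and HD-recovery minus HD, on 1 horizontal scale. The 7 genes other than Ciita lie left of 0 with intervals that end at -0.01 or below in the first panel, every interval includes 0 in the second, and Cd74 lies at 0.63 in the third.

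Across the 77 arrays, with the group means removed, the 8 genes fell into an ordered pattern of covariation. Cd74, RT1-Da, RT1-Ba and RT1-Bb varied together from rat to rat, with Pearson correlations of 0.93 to 0.96 in all 6 pairs. Within single groups the same pairs had 0.82 to 0.94 in HD, 0.90 to 0.98 in water, 0.95 to 0.97 in HD-recovery and 0.92 to 0.97 in water-recovery arrays. RT1-DMa correlated with these genes at 0.79 to 0.85, RT1-Db1 at 0.61 to 0.70 and RT1-DMb at 0.51 to 0.60.

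Ciita had negative correlations with the same genes, from -0.40 to -0.41, and of -0.34 to -0.54 with Cd74 within each group. The group means of Ciita (6.60 to 6.67) lay within the range of the array medians (6.51 to 6.78). The class II mean also ran against the array median (r = -0.58). Whether the low level of Ciita has a part in the sign of its correlations was not tested. Without the arrays that stood apart the 6 pairs had 0.91 to 0.95 and Ciita -0.33 to -0.40. All of these values come from the same arrays and share their RNA quantity and scaling, and they are given as a description.

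**Figure D3:**
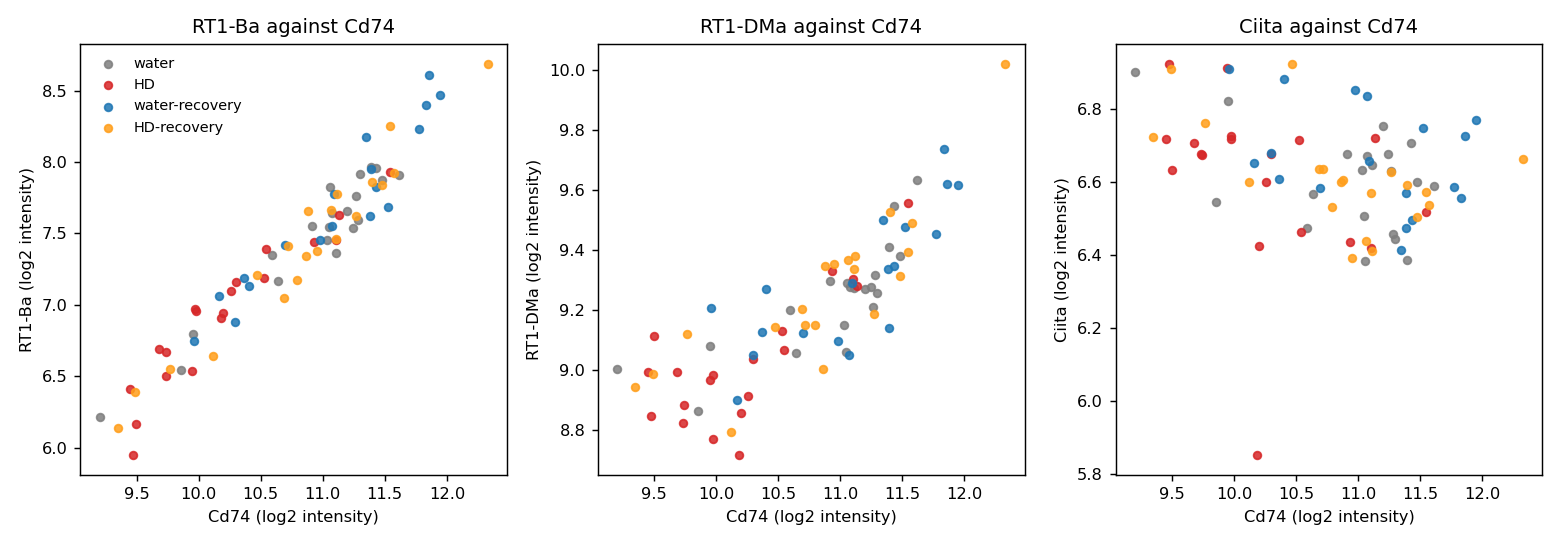
Log2 intensity of RT1-Ba, RT1-DMa and Ciita (vertical axes) against that of Cd74 (horizontal axes), 1 point per array and 1 colour per group. RT1-Ba follows Cd74 along a line through all 4 groups (r = 0.96 with group means removed), RT1-DMa follows more loosely (0.79), and Ciita runs slightly the other way (-0.40).

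The genes most like the class II mean, by the same correlation over 77 arrays and outside the 8, were Cd4 (0.93), Apoe (0.92), Ctss (0.91), Clec7a (0.91), Laptm5 (0.91), Cst3 (0.90), Ctsb (0.90), Lyz2 (0.89), Ctsa (0.88) and B2m (0.88). Cd4 is the co-receptor that binds class II on T cells and, in the rat, is also carried by macrophages. Ctss, Ctsb and Ctsa are cathepsins, Cst3 a cathepsin inhibitor, Clec7a the beta-glucan receptor of myeloid cells and Lyz2 a lysozyme of macrophages. Of these 10, Cd4 at -0.56 (q = 0.036), Clec7a at -0.45 (q = 0.040) and Lyz2 at -0.95 (q = 0.042) were lower in arrays labelled HD by limma, and the other 7 did not pass, with differences from -0.34 for Ctsa to -0.61 for Ctsb. The study had listed some of these genes from the same samples, so they are not independent evidence.

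Other genes of the pathway were taken from lists. The class II genes outside the 8 that were measured, RT1-DOa and RT1-DOb (the chains of the DO protein, which holds DM back) and RT1-Ha, did not differ, with log2 differences of 0.00 (SE 0.07), -0.04 (SE 0.06) and 0.00 (SE 0.06) in HD minus water, and none of the 3 passed at an unadjusted p under 0.05. Their mean ran against the class II mean across arrays (r = -0.40). The group means of this list (6.68 to 6.73) also lay within the range of the array medians, and a part of that level in the sign was not tested. Of 19 measured regulators of class II transcription and turnover, among them the RFX and NF-Y subunits, interferon gamma and its receptor, none passed. The differences ran from -0.29 to 0.13 with a median of -0.01, the most negative being Ifngr1, the interferon gamma receptor chain that binds the cytokine (-0.29, SE 0.10, q = 0.27), and Jak1, its kinase (-0.23, SE 0.15).

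Of all probe sets, 4.91% were lower in HD minus water at an unadjusted p under 0.05. Of 14 endosomal genes none passed, though 7 were lower at that p and none higher. Their median was -0.21 and 12 of the 14 were negative, with Ctsb, a cysteine cathepsin, at -0.61 (SE 0.18, q = 0.13) and Cst3 at -0.55 (SE 0.18, q = 0.21). Of 20 genes of the class I pathway none passed and 19 were negative, with a median of -0.09. B2m, the light chain shared by class I molecules, had -0.60 (SE 0.20, q = 0.20), and Pdia3, a chaperone of peptide loading, -0.43 (q = 0.68). Of 13 costimulatory genes and class II partners, Cd4 was lower and the other 12 did not pass.

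Markers of some leukocytes differed between the same groups, though few passed, and some of those that did were also listed by the study from these samples. All 6 measured pan-leukocyte markers had negative differences in HD minus water, with a median of -0.49. At an unadjusted p under 0.05 all 6 were lower, against 4.91% of all probe sets. Fcer1g, the common chain of Fc receptors, passed (-0.68, SE 0.16, q = 0.043 from limma), and the other 5 did not. The mean of the 6 ran from 7.26 over a median of 7.59 to 8.82 in HD arrays and from 7.55 over 8.20 to 8.81 in water arrays. In the recovery groups it ran from 7.31 to 9.13 in HD-recovery and from 7.45 to 9.26 in water-recovery arrays, with medians of 8.36 and 8.26.

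Of 10 monocyte and macrophage markers, 3 passed as lower in arrays labelled HD and none as higher, against 0.472% of all probe sets in either direction. The 3 were Lyz2, Cx3cr1, a chemokine receptor of monocytes and macrophages (-0.36, q = 0.0048 from limma), and Ccr2, which draws monocytes into tissue (-0.45, q = 0.0092). The other 7 did not pass. Of the 10 differences 8 were negative and 2 positive, Mrc1 (0.08) and Cd14 (0.04), and Cd163 had -0.0026. The mean of the 10 ran from 6.94 to 7.70 in HD and from 7.20 to 7.76 in water arrays. Of 8 T cell markers, Cd4 and Cd5 (-0.27, q = 0.029) were lower and 6 did not pass, with list means from 6.40 to 7.07 in HD and from 6.70 to 7.22 in water arrays. None of 3 B cell markers passed (medians of the list mean 6.62 in both groups), with Ms4a1 at -0.04 and Cr2 at 0.03, and none of 6 dendritic cell markers passed (6.92 in HD and 6.89 in water arrays), with Flt3 at -0.09 and Xcr1 at -0.08. None of these 9 reached an unadjusted p under 0.05.

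Of other cells, red cell markers had 1 of 3 lower (Ahsp, a chaperone of globin, at -0.25, q = 0.027). All 3 were lower at an unadjusted p under 0.05, against 4.91% of all probe sets. Hbb, a globin chain, was at -0.85 (q = 0.060 from limma). The median of the 3, -0.53, was further from 0 than that of the class II genes. The red cell list had means from 6.80 to 8.59 in HD and from 7.17 to 8.71 in water arrays. None of 7 markers of the epididymal epithelium passed, Crisp1 (-0.37, q = 0.76) and Defb22 (-0.23, q = 0.31) having the most negative values, and the list mean ran from 6.67 to 7.80 in HD and from 6.70 to 7.94 in water arrays. Of 11 sperm and spermatid genes, Odf1, an outer dense fibre protein of the tail, was lower (-0.22, q = 0.044) and 10 did not pass. At an unadjusted p under 0.05, 5 of the 11 were lower, against 4.91% of all probe sets, and 4 were higher. The share of all probe sets that were higher is not given here. The differences ran from -0.58 for Pgk2, a glycolytic enzyme of sperm, to 0.78 for Akap4, a protein of the fibrous sheath. The list mean was 10.88 ± 0.45 (SD, n = 19) in HD and 10.79 ± 0.48 (SD, n = 20) in water arrays. The part of red cell and epididymal RNA in the class II values was not tested.

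The class II mean of an array followed the pan-leukocyte mean. With group means removed the correlation was 0.89 over 77 arrays (0.88 without the 2 arrays farthest from the median and 0.87 without those that stood apart), and within groups it was 0.94 in HD, 0.76 in water, 0.91 in HD-recovery and 0.94 in water-recovery arrays. It was 0.80 with the monocyte and macrophage mean, 0.81 with the T cell mean, 0.90 with the class I pathway and 0.87 with the endosomal list. It was 0.78 with the red cell mean, 0.67 with the epididymal mean and 0.42 with the sperm mean, and negative with the B cell (-0.50) and dendritic cell (-0.62) means. The group means of the B cell list (6.55 to 6.59) lay within the range of the array medians (6.51 to 6.78). Those of the dendritic cell list (6.86 to 6.92) lay just above it. Whether these low levels have a part in the negative signs was not tested. Against measures over all probe sets, the correlation of the class II mean was -0.58 with the array median and 0.73 with the first component.

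With the pan-leukocyte mean as a covariate, the log2 difference of HD minus water was -0.11 for Cd74 (SE 0.11, p = 0.35), -0.10 for RT1-Da (SE 0.09), -0.07 for RT1-Ba (SE 0.10) and -0.10 for RT1-Bb (SE 0.10). The median over the 8 genes was -0.07, against -0.04 over all probe sets. None of the 8 passed in limma, by q or at an unadjusted p under 0.05, while 1298 of the 29214 probe sets passed by q. The pan-leukocyte mean itself differed between HD and water arrays, so a fit that includes it removes any group difference that both measures share. The first component was taken after the group means had been removed, so as a covariate it cannot change the size of a group difference, only its error. With it Cd74 had an SE of 0.14 (q = 0.00061), and 6 of the 8 genes passed, all lower, beside 1433 of all probe sets.

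**Figure D4:**
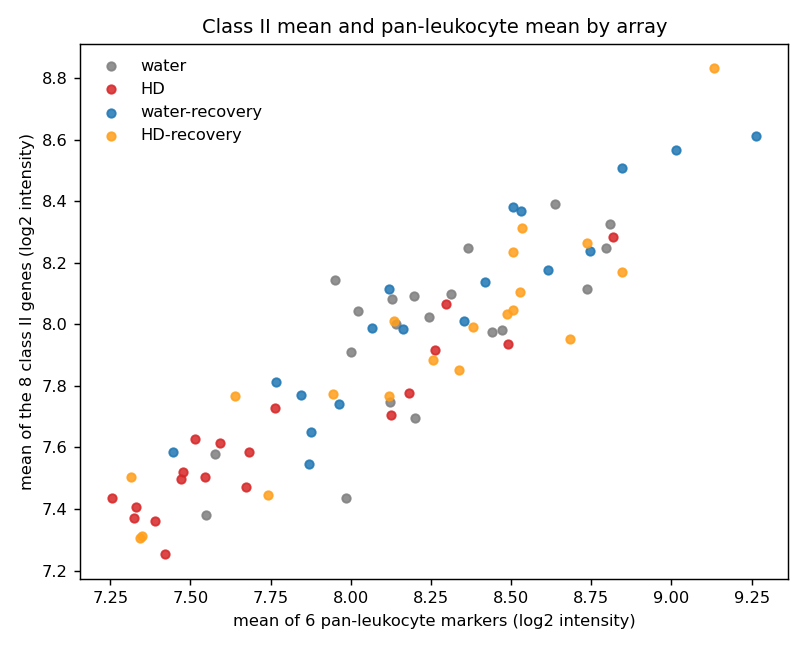
Mean log2 intensity of the 8 class II genes (vertical axis) against the mean of 6 pan-leukocyte markers (horizontal axis), 1 point per array and 1 colour per group. The HD arrays lie mostly in the lower left, with a median pan-leukocyte mean of 7.59 against 8.20 for water, and all 4 groups follow 1 band.

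How many of the genes passed in HD versus water depended on the setting and on single arrays. Without HD replicate 14 alone, 5 of the 8 passed, Cd74 (-0.79, q = 0.012 from limma), RT1-Da, RT1-Ba, RT1-Bb and RT1-DMa, beside 376 of the 29214 probe sets. Without water replicate 12 or 17, 4 genes passed, beside 321 and 195 of all probe sets. Leaving out HD replicate 3, 4 or 5 or water replicate 15 gave 3 genes, beside 223 to 329 probe sets, leaving out HD replicate 13 gave 1 beside 144, and leaving out any single one of the other arrays gave none. The size moved little: over the 39 fits Cd74 ranged from -0.80 to -0.67 with q between 0.0091 and 0.12, and RT1-Bb from -0.53 to -0.43. Cd74 passed in 8 of the 39 fits, RT1-Da and RT1-Bb in 7, RT1-Ba in 3 and RT1-DMa in 1. With array weights, which give less weight to arrays that vary more, Cd74 had -0.86 (q = 0.00024 from limma) and 6 of the 8 genes were lower, beside 5178 of all probe sets. The 6 genes were the same under array weights, under the first component and without the arrays that stood apart: Cd74, RT1-Da, RT1-Ba, RT1-Bb, RT1-Db1 and RT1-DMa.

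**Figure D5:**
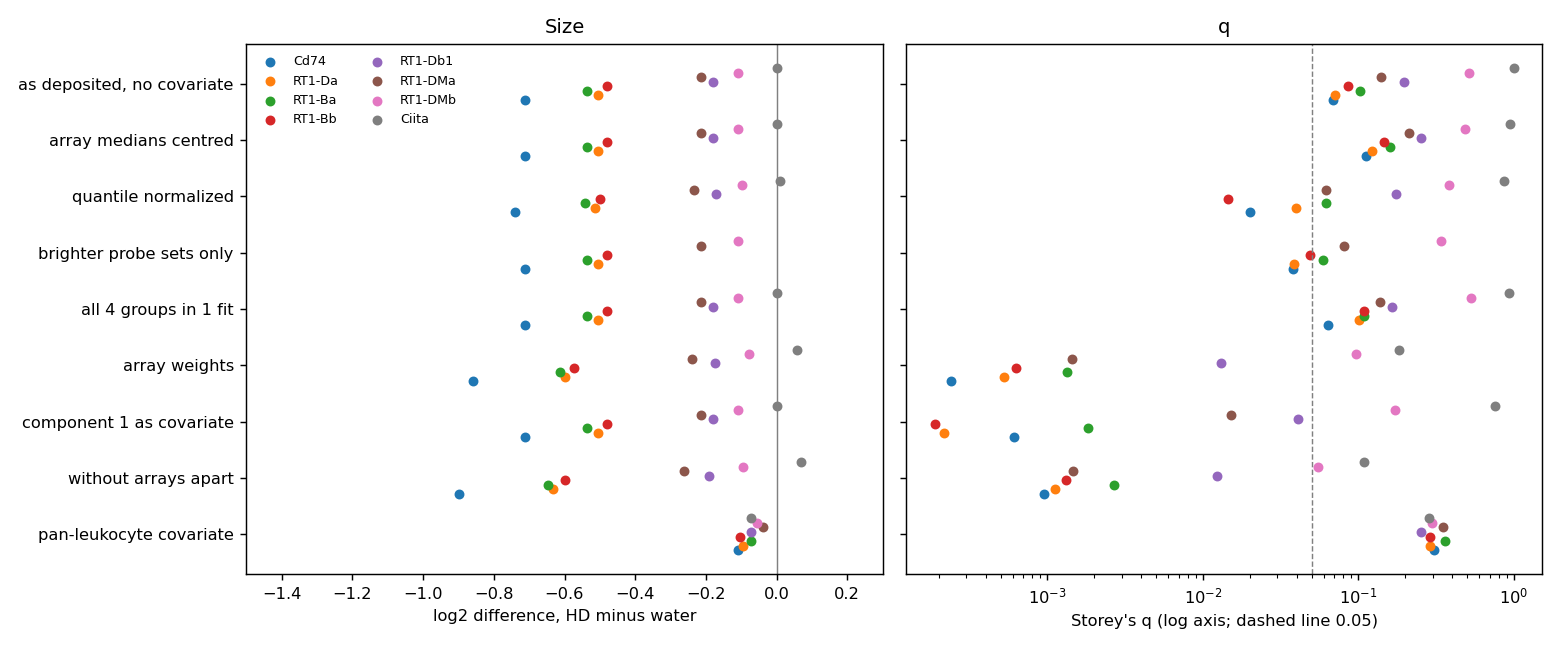
Log2 difference of HD minus water (left) and Storey's q on a log axis (right) for each of the 8 genes, 1 colour per gene, under 9 of the settings tried (vertical axis), the dashed line marking q = 0.05. In the settings drawn, Cd74 lies between -0.71 and -0.90 except with the pan-leukocyte covariate, where it is at -0.11, and its q runs from 0.00024 to 0.31.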

How the data were processed

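Sperm RNA of 77 rats was measured on Affymetrix Rat Gene arrays. The authors deposited 1 table of normalized values per probe set and array, taken from their range (2.51 to 14.63) to be log2 intensities, and their normalization steps were not given in the sources used here. Per the labels, groups and replicate numbers came from the sample titles, and limma is named in the submitters' processing notes. The members and lists were chosen with earlier results of these data known. Named genes were the 8 members, the called genes of each list or its 2 largest differences, and the 10 genes most correlated with the class II mean. HD was set against water, and HD-recovery against water-recovery, by limma 3.58.1 in R 4.3.3 over all 29214 probe sets, of which 15310 carried 1 symbol, and Storey's q under 0.05 was taken as passed (pi0 from a spline over 0.05 to 0.95). Contrasts across recovery used 1 fit of all 4 groups. The fit was run on simulated data with independent noise in each probe set. The noise of these arrays was shared between probe sets, so that run does not test the q-values given here. An array stood apart if its median correlation with its group lay over 3 scaled MADs under the group's median. The number of arrays limits the precision. Same-numbered arrays did not pair (median r of their deviations 0.03 and 0.04). The alternatives were scaling, a filter on dim probe sets, Benjamini-Hochberg adjustment, array weights, covariates, a replicate block and leaving out arrays.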

Additional observations from a re-analysis of the deposited data

How the results depend on the processing

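In HD versus water the number of class II genes that passed was 0 as reported. It was also 0 with centred array medians (beside 63 of 29214 probe sets), Benjamini-Hochberg adjustment (138) and all 4 groups in 1 fit (221). With numbers up to 10 or over 10 as a covariate it was 0 (beside 158), and with the pan-leukocyte covariate 0 (beside 1298). It was 3 with quantile normalization (beside 352) and 3 with probe sets above the median level only (222 of 14607). Array weights gave 6 (5178 of 29214), the first component as a covariate 6 (1433) and leaving out the arrays that stood apart 6 (8818). Over the fits without 1 array it was 0 to 5. With the replicate block it was 2 (beside 156 probe sets), Cd74 (q = 0.038) and RT1-Da (q = 0.048) by limma, and 0 in the other comparisons. The pairing has no basis in the labels or the data, since 2 of 19 HD arrays and 4 of 18 HD-recovery arrays correlated best with their own number. The median log2 difference of -0.35 ranged from -0.49 with the brighter probe sets, which left out RT1-Db1 and Ciita, to -0.07 with the pan-leukocyte covariate, and from -0.39 to -0.32 without 1 array. In the difference of the exposure effects, 6 genes passed with array weights (5 negative, beside 9833 of 29214 probe sets) and 7 without the arrays that stood apart (6 negative, beside 16591). In HD-recovery versus HD, 5 passed with array weights (beside 13211 of 29214 probe sets), 5 with the first component (1383) and 8 without the arrays that stood apart (16765), 7 higher and Ciita lower. The cause was not tested. Without the arrays that stood apart, fewer genes were under an unadjusted p of 0.05 than passed by q. In the difference of the exposure effects 5 were lower and 1 higher at that p, and in HD-recovery versus HD 6 were higher and 1 lower. In the other settings of these comparisons, and in all settings of HD-recovery versus water-recovery and water-recovery versus water, 0 of the 8 genes passed. Other probe sets did pass in some of these. In HD-recovery versus water-recovery 3834 of 29214 passed without the arrays that stood apart and 527 with array weights. The first component gave 60 there and the pan-leukocyte covariate 32. In water-recovery versus water 315 passed with the first component and 7 with the pan-leukocyte covariate. The sign of Ciita in HD versus water turned with the numbering covariate (-3.5e-05), the pan-leukocyte covariate (-0.072) and within the range of -0.015 to 0.044 without 1 array. Averaging all probe sets of a gene changed nothing, as each had 1.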
